A study of Drosophila melanogaster with 9 samples.

Results

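The genes of the *Drosophila* genome were compared between first-stage allograft masses and sorted cells of the primary larval tumor, the stage before transplantation. The genes described are all rows of the table for this pair of stages that carry a gene symbol, 11431 of 12668 features, the other 1237 having none. N-FACS denotes GFP-positive cells sorted after collagenase treatment from the brains of late larvae, 4 days after the induction of *actinF/O* clones that express *UAS-NΔecd*, a Notch receptor lacking its extracellular domain and active without ligand. N-T0 denotes GFP tumor masses of the same genotype, collected unsorted from *w1118* adult hosts 8 to 10 days after brains were transplanted for the first time. Each group has 3 libraries of polyA RNA, each pooled from 150 larval brains (N-FACS) or 25 host flies (N-T0). The transgene is driven by an actin flip-out cassette in whichever cells recombined, so that the clones are not limited to 1 cell type of the brain, and the host lacks the transgene but contributes its own cells to an unsorted mass. The study's methods describe the sorted cells as mostly cancer neural stem cells with a few neurons and glia. The study's methods sorted cells from the whole larval central nervous system but transplanted single brain lobes, which lack the ventral nerve cord. Sorting, dissociation, starting tissue, age, growth in the host and the host's own cells all differ between the groups at once, so that they cannot be told apart as sources of any difference below.

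Whole counts per library were recovered from the deposited means for 11231 of the genes by integer lattice reduction, and 7733 of these had a mean of at least 30 normalized counts and were tested. A normalized count is a read count divided by the size factor of its library. The other 3498 genes with whole counts lay under that mean, and for 200 genes of the highest levels only a mean per group could be solved, with no spread and no test. The recovered features held 13296975, 13423499 and 11939240 reads in the N-FACS libraries and 16322756, 12075094 and 5268727 in the N-T0 libraries. Libraries are numbered within a group by their size factor, the largest first, since the files do not tie them to the replicate numbers of the labels. Across the features tested, the libraries of a group correlated at 0.973 to 0.99 (N-FACS) and 0.948 to 0.979 (N-T0), and libraries of different groups at 0.703 to 0.828 (Pearson's r of log2 values across features, which share their depth and are no independent replicates). The first principal component carried 85.3% of the variance and separated the groups. The second carried 8.56% and set N-T0 library 3, the shallowest, apart from N-T0 library 1, while N-FACS library 1 was closer to the N-T0 libraries (0.763 to 0.828) than N-FACS libraries 2 and 3 were (0.703 to 0.773).

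Larval neural stem cells, called neuroblasts, divide asymmetrically into a renewed stem cell and a smaller progeny cell that goes on to make neurons or glia. Notch signaling keeps the stem cell fate through the E(spl) repressors and Deadpan, while Prospero and Brat drive differentiation in the progeny. When Notch stays active in the progeny, these cells revert to stem cell character and a tumor forms, and such a brain piece can be propagated in the abdomen of an adult fly, where host blood cells, fat body, gut and other organs surround it. The fly answers infection and tissue damage with secreted antimicrobial peptides, thioester and clotting proteins, Turandot stress proteins, and phagocytic blood cells called plasmatocytes.

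Of the 7733 genes tested, 1312 (17.0%) were called higher and 1624 (21.0%) lower in N-T0 than in N-FACS, at an adjusted p of at most 0.05 and a log2 fold change of at least 0.5 in size (limma, Benjamini-Hochberg over all 7892 features tested). Over all features tested, with or without a symbol, 17.6% were called higher and 20.7% lower, 38.3% in either direction (38.0% of genes with a symbol), and the median log2 fold change was -0.023. These shares are the background for each count of called genes in a list or family below. All N-T0 libraries lay above all N-FACS libraries in 27.1% of the features tested and below them in 29.0%, which is the background for each statement below that groups did not overlap. The lower genes had moved further. Their median log2 fold change was -1.720, against 1.033 for the higher genes, and 738 of them lay at or below -2, against 254 higher genes at or above 2. Leaving out a single library gave between 883 and 1383 higher and between 1096 and 1778 lower features. The fewest calls in both directions came without N-FACS library 2, with 883 and 1096. A test against a log2 fold change of 0.5, in place of 0, called 535 features higher and 865 lower.

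**Figure D1:**
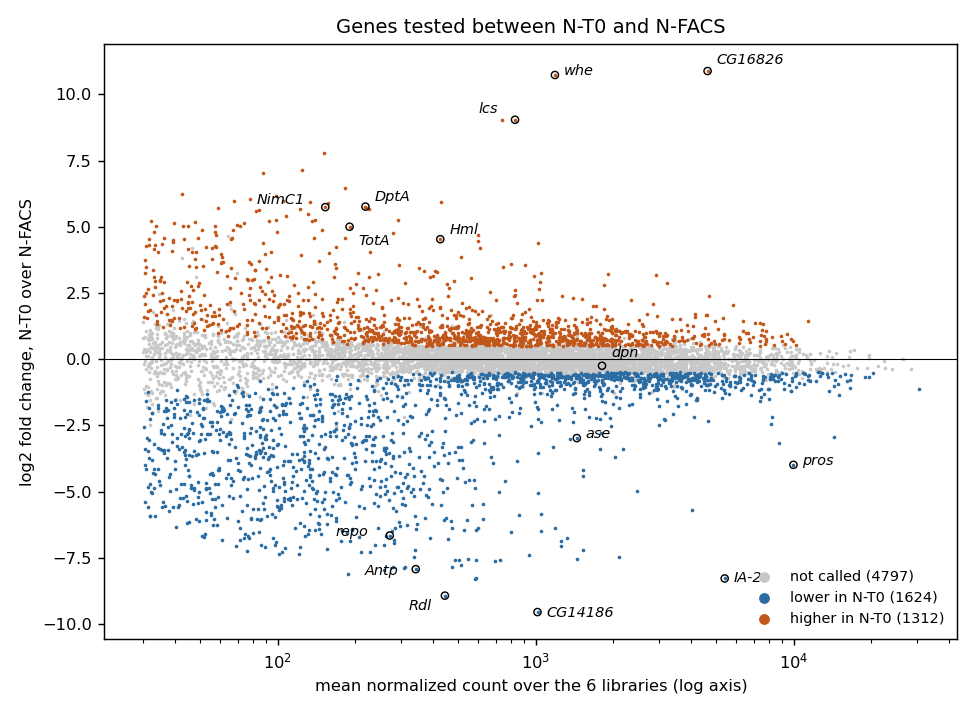
Each point is 1 of the 7733 genes tested, with its mean normalized count over the 6 libraries on a logarithmic x axis and its log2 fold change of N-T0 over N-FACS on the y axis. Blue points were called lower, orange points higher, and gray points were not called. Circles mark named genes, from *CG14186* at -9.55 to *CG16826* at 10.88.

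The gene with the smallest p of all was *CG14186*, which flies induce on neuronal activity and which is on the list of genes that sorting can touch, given below. It was at 1908, 2210 and 1979 normalized counts in the N-FACS libraries and at 1.32, 1.83 and 2.03 in the N-T0 libraries (log2 fold change -9.55 ± 0.28 SE, adjusted p = 2.21e-06). All 3 sorted libraries were thus about equal, and the allografts held 5 reads in all. The gene lies at chromosome 3L, 20098084 to 20103827 (BDGP6.54 annotation), and shares no exon with another gene. *IA-2*, a tyrosine phosphatase-like protein of dense core vesicles, was at 10211, 9835 and 12280 in N-FACS and at 17.9, 60.4 and 34.6 in N-T0 (-8.28 ± 0.37, adjusted p = 1.69e-05). It was the most abundant of the 12 lower genes with the smallest p. The others were *CG12239*, *CG4577*, *unc80*, *Pal2*, *CG2269*, *igl*, *rad*, *Rdl*, *spab* and *Nplp1*, with log2 fold changes from -8.93 (*Rdl*) to -5.49 (*rad*). Several of them work in neurons: *unc80* in the sodium leak channel complex, *Rdl* as a GABA receptor subunit, *igl* as a calmodulin-binding protein, *spab* and *Nplp1* as neuropeptide precursors.

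In all, 171 genes with at least 30 normalized counts in N-FACS had a mean under 3 in N-T0, and 19 of them had no read in any N-T0 library. Their 10 most abundant were *CG14186*, *Rdl*, *unc80*, *hkb*, *Shab*, *Ktl*, *Proc*, *SK*, *spab* and *Frq1*. The potassium channel gene *Shab* was at 589, 500 and 584 in N-FACS and at 0.662, 7.32 and 0 in N-T0 (-7.86 ± 0.73, adjusted p = 1.74e-04). *Proc*, the precursor of the neuropeptide proctolin, was at 429, 468 and 530 against 4.64, 1.83 and 2.03 (-7.03 ± 0.41, adjusted p = 3.37e-05). The transcription factor gene *hkb* was at 746, 660 and 468 against 0.662, 2.75 and 2.03 (-7.85 ± 0.44, adjusted p = 3.20e-05). No N-T0 library came near any N-FACS library in these 3 genes. Where a group held 1 to 3 reads a ratio of reads is given instead, with an exact 95% interval that covers counting error only. It was 1364 (377 to 11266) for *Rdl*, with 2906 reads against 2, and 576 (159 to 4760) for *Frq1*, a calcium sensor of nerve terminals, with 1227 reads against 2.

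Neuronal genes were lower in N-T0 as lists. Of 14 tested genes of synapses and vesicle release, 11 were called lower and none higher, with a median log2 fold change of -5.86, beside -0.023 over all features and 20.7% of all features called lower. Of 11 tested genes of neuropeptides and transmitters, 9 were lower and none higher, with a median of -6.44 and a range from -8.28 to 0.56. The other 2 were not called, and in 1 of them every N-T0 library lay above every N-FACS library. This list holds *IA-2*, *Nplp1* and *Pal2*, which are also among the 12 lower genes with the smallest p. The lists were chosen with earlier results of these data known, so their counts are a description and no independent support. Of 11 tested genes of neuron identity and RNA binding, 10 were lower, with a median of -3.68. *brp*, a scaffold of the active zone, was at 1275, 1587 and 1887 in N-FACS and at 7.29, 32 and 16.3 in N-T0 (-6.54 ± 0.46, adjusted p = 5.78e-05). *nSyb*, the SNARE protein of synaptic vesicles, was at 1297, 1701 and 2065 against 15.2, 59.5 and 22.4 (-5.87 ± 0.45, adjusted p = 8.73e-05). *cpx*, the complexin that clamps vesicle fusion, was at 1610, 2112 and 2449 against 19.2, 51.3 and 40.7 (-5.84 ± 0.35, adjusted p = 3.85e-05). The groups were far apart in each case, and N-T0 library 2 held the most of all 3 among the allografts. *Syt1*, the calcium sensor of release, was at 1121, 1472 and 1755 against 0.662, 12.8 and 16.3 (-7.60 ± 0.79, adjusted p = 2.54e-04).

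Markers of 4 transmitter systems were among the lower genes. The vesicular acetylcholine transporter gene *VAChT* was at 432, 632 and 584 in N-FACS and at 3.31, 15.6 and 2.03 in N-T0 (-6.50 ± 0.61, adjusted p = 1.74e-04). The glutamate transporter gene *VGlut* was at 955, 1288 and 1248 against 1.99, 17.4 and 0 (-8.25 ± 0.90, adjusted p = 3.09e-04). *Gad1*, which makes GABA, was at 955, 972 and 1076 against 4.64, 1.83 and 8.13 (-7.57 ± 0.43, adjusted p = 3.22e-05). *Trh*, the tryptophan hydroxylase of serotonin neurons, was at 164, 165 and 159 against 8.61, 8.24 and 22.4 (-3.68 ± 0.44, adjusted p = 4.74e-04). Cholinergic, glutamatergic, GABAergic and serotonergic markers thus shared a direction. In a whole tissue or mass, fewer cells of a type and less RNA per cell cannot be told apart, which holds for every gene below.

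The pan-neuronal RNA-binding protein gene *elav* was less completely reduced. It was at 3430, 4796 and 3600 in N-FACS and at 193, 800 and 327 in N-T0 (-3.39 ± 0.44, adjusted p = 6.83e-04). The allografts therefore kept 193 to 800 normalized counts of *elav*, whereas *brp*, *nSyb*, *cpx* and *Syt1* were below 60 in each of them. *nerfin-1*, a zinc finger gene of young neurons that blocks their dedifferentiation, was at 3256, 4562 and 1956 against 174, 414 and 342 (-3.40 ± 0.38, adjusted p = 3.50e-04). *Appl*, the fly amyloid precursor homolog, was at 2577, 4026 and 4608 against 126, 331 and 543 (-3.68 ± 0.48, adjusted p = 6.72e-04). These 3 genes of neuron identity were thus lower by less than *brp* or *Syt1*, although the differences between genes were not tested. Some members were not called. The calcium channel gene *cac* was at 2036, 1527 and 1857 against 711, 2770 and 2538 and was not called (-0.07 ± 0.46, adjusted p = 0.919), and *unc-13*, a vesicle priming factor, was at 5655, 5348 and 5652 against 2599, 6709 and 6230 (-0.22 ± 0.33, adjusted p = 0.62). In both genes N-T0 library 1 was the lowest of the 6 libraries and the other 2 allografts were above every N-FACS library. Without N-T0 library 1, the log2 fold change of *cac* was 0.56. In that fit 1 gene of synapses and vesicle release was called higher and 11 lower.

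**Figure D2:**
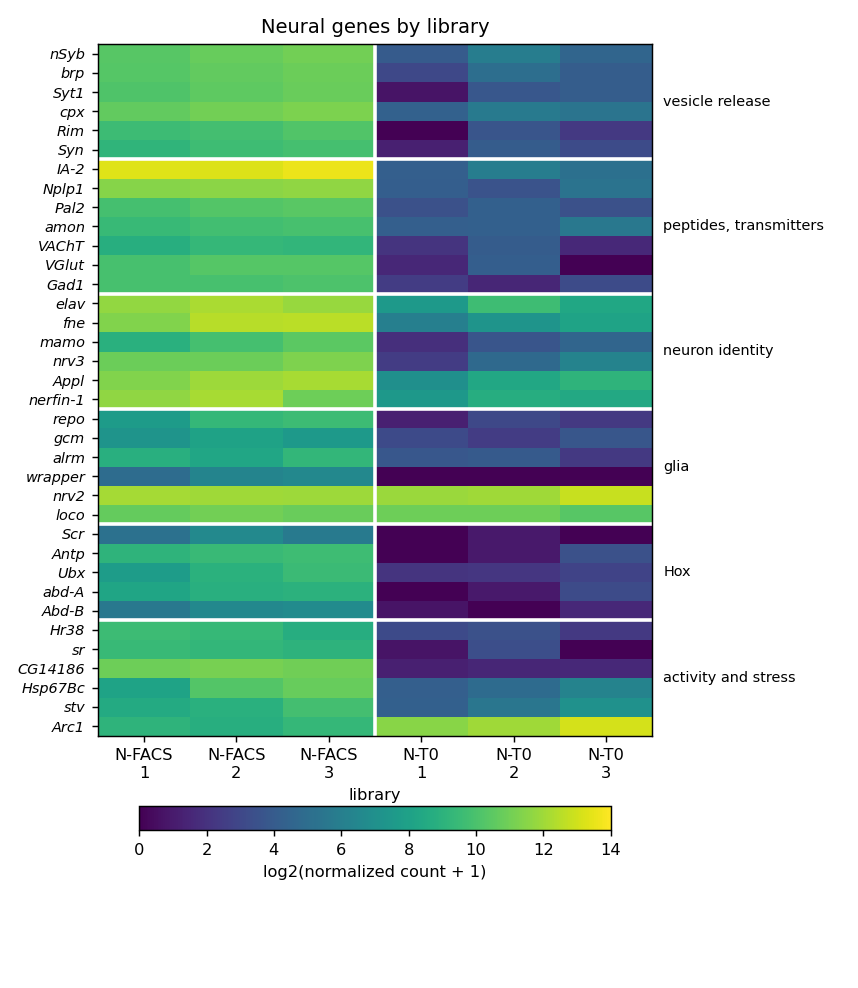
Rows are named genes in 6 groups and columns are the 3 N-FACS and the 3 N-T0 libraries. Color gives log2(normalized count + 1), from 0 in dark to 14 in yellow. Nearly all neuronal, glial and Hox genes are darker in N-T0 than in N-FACS, with *elav*, *Appl* and *nerfin-1* at middle levels in N-T0. *nrv2* and *loco* are about as bright in N-T0, and *Arc1* is brighter in N-T0.

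Glial genes split. Of 12 tested, 8 were lower and none higher, with a median log2 fold change of -2.29. *repo*, the transcription factor that defines glia, was at 201, 639 and 780 in N-FACS and at 1.32, 7.32 and 4.07 in N-T0 (-6.66 ± 0.65, adjusted p = 1.98e-04). *gcm*, which starts the glial program, was at 150, 266 and 189 against 7.95, 4.58 and 12.2 (-4.50 ± 0.45, adjusted p = 2.26e-04). *alrm*, an astrocyte marker, was at 457, 311 and 615 against 13.2, 14.6 and 4.07 (-5.42 ± 0.49, adjusted p = 1.59e-04). *repo* was lowest in library 1 of the sorted cells, yet still far above the allografts, and its log2 fold change was -7.26 without that library. *wrapper*, of midline and cortex glia, had 217 reads in N-FACS and none in N-T0, at least 68.8-fold lower against a floor of 3 reads over the group. The genes that were not called included *nrv2*, a subunit of the sodium pump, at 4500, 4040 and 3985 against 3827, 4036 and 7243 (0.21 ± 0.24, adjusted p = 0.512), and *loco*, a regulator of G proteins, at 1631, 2085 and 1794 against 1931, 1908 and 1332 (-0.10 ± 0.18, adjusted p = 0.675). The glutamate transporter *Eaat1* went the other way, with solved means of 5894 in N-FACS and 20845 in N-T0 and no test. Across the 13 members with library values the summed level was 8255, 9781 and 10356 in N-FACS and 6568, 6769 and 9384 in N-T0, which *nrv2* dominates.

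The Hox genes, which set segment identity along the body and are used in the ventral nerve cord, were nearly absent from the allografts, which per the methods were started from brain lobes without that cord, a difference that cannot be told apart from the others between the groups. All 5 members tested were called lower, with a median of -6.36, and the 8 members together summed to 1216, 1928 and 2270 normalized counts in N-FACS and to 6.62, 8.24 and 28.5 in N-T0. With N-T0 sums this low, a member reached the mean of 30 only through N-FACS, so the filter fixed the direction of those tested. *Antp* was at 556, 704 and 789 in N-FACS and at 0, 0.915 and 10.2 in N-T0 (-7.93 ± 0.80, adjusted p = 2.26e-04). *Ubx* was at 215, 494 and 743 against 3.31, 3.66 and 6.1 (-6.36 ± 0.51, adjusted p = 1.00e-04). *abd-A* was at 300, 452 and 503 against 0, 0.915 and 8.13 (-7.30 ± 0.77, adjusted p = 2.73e-04). *pb*, which lay under the mean of 30, had 149 reads in N-FACS and none in N-T0. The thoracic and abdominal Hox genes were thus at the level of single reads in the allograft libraries, with N-T0 library 3 holding the most of *Antp* and *abd-A*.

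Genes of the optic lobe and anterior brain did not share one direction. Of 11 tested, 6 were lower, 2 higher and 3 not called. The retinal determination gene *ey* was at 519, 535 and 394 in N-FACS and at 13.2, 23.8 and 20.3 in N-T0 (-4.61 ± 0.31, adjusted p = 4.83e-05). *dac* was at 512, 869 and 543 against 46.4, 55.8 and 8.13 (-4.42 ± 0.64, adjusted p = 0.00111). By contrast *Optix* was at 1633, 2115 and 1754 against 3693, 2934 and 2479 (0.72 ± 0.18, adjusted p = 0.0147). Every allograft was above every sorted library for this gene. The call of *Optix* was lost without N-FACS library 1 or 3. *eya* and *so*, which act in eye development, overlapped between the groups, with log2 fold changes of 0.11 ± 0.22 and 0.37 ± 0.24.

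The neural stem cell genes did not move as 1 group. *dpn*, the Hes repressor that marks neuroblasts, was at 1783, 1910 and 2095 normalized counts in N-FACS and at 2047, 1962 and 1055 in N-T0 (-0.25 ± 0.25, adjusted p = 0.451, 95% limits -0.82 to 0.32). The zinc finger gene *klu* was at 5893, 7074 and 6483 against 7882, 10130 and 6828 (0.34 ± 0.17, adjusted p = 0.151), and the polarity gene *insc* at 3701, 3815 and 3784 against 5056, 4780 and 2174 (-0.01 ± 0.30, adjusted p = 0.984). The groups overlapped in these 3 genes, and in *dpn* and *insc* N-T0 library 3 alone was below the sorted libraries, without which their log2 fold changes were 0.06 and 0.38, neither called. *mira*, the adaptor that carries Prospero to the daughter cell, had solved means of 39337 and 53046, and *grh* of 10289 and 11578. Of the 8 list members tested, 5 were lower and none higher.

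The 5 that fell were *pros*, *ase*, *wor*, *numb* and *cas*. *pros* was at 13957, 20889 and 21297 in N-FACS and at 950, 2040 and 793 in N-T0 (-3.99 ± 0.34, adjusted p = 1.26e-04), and so was the most abundant tested gene of the lists to fall this far. It lies at chromosome 3R, 11328480 to 11407627, and shares 0.289% of its exon bases with another gene. *ase*, the proneural factor of type I neuroblasts and their daughter cells, was at 2503, 2655 and 2520 against 267, 434 and 293 (-2.98 ± 0.20, adjusted p = 4.83e-05). *wor*, a Snail family gene, was at 8636, 11193 and 8994 against 6710, 6079 and 4189 (-0.78 ± 0.20, adjusted p = 0.016), *numb*, the Notch antagonist passed to the daughter cell, at 11903, 12200 and 12601 against 7836, 8204 and 6401 (-0.72 ± 0.14, adjusted p = 0.00507), and *cas*, an early temporal factor, at 7730, 6298 and 4378 against 1482, 3502 and 1659 (-1.54 ± 0.34, adjusted p = 0.00781). All allografts were below all sorted libraries in these 5 genes, but the spread of *cas* within each group was wide, and *wor* lost its call without N-FACS library 2. *Syp*, an RNA-binding protein of late-born neurons and older neuroblasts, had solved means of 73623 in N-FACS and 11707 in N-T0, 6.29-fold lower. Its partner in timing, *Imp*, had solved means of 9658 and 6576, and *brat*, the tumor suppressor of the daughter cell, of 15100 and 7278, neither with a test.

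**Figure D3:**
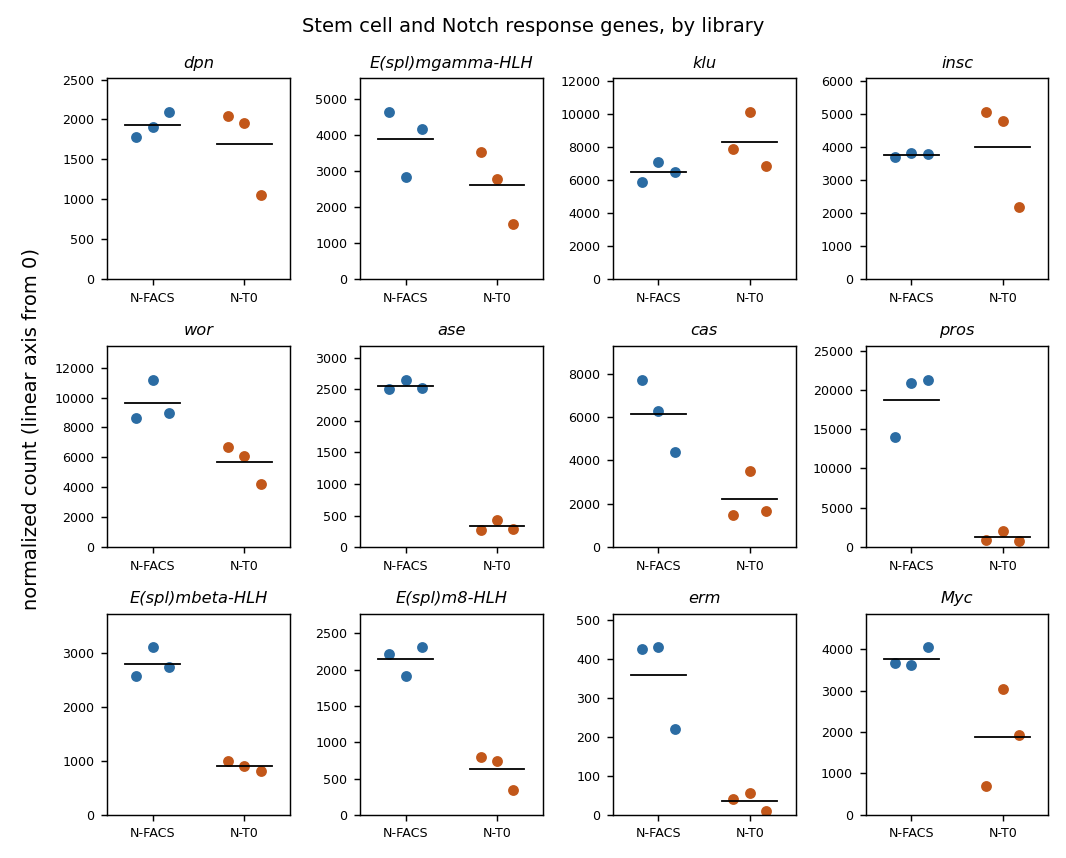
Each panel is a stem cell or Notch response gene, with 3 N-FACS libraries in blue, 3 N-T0 libraries in orange, the normalized count on a linear axis from 0, and a black bar at each group mean. The groups overlap for *dpn*, *E(spl)mgamma-HLH*, *klu* and *insc*, and all N-T0 libraries lie below all N-FACS libraries for the others.

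Factors of early differentiation and of intermediate progenitors were lower in 10 of 11 genes tested, with a median log2 fold change of -2.84. *erm*, which restricts the fate of intermediate progenitors, was at 426, 430 and 221 in N-FACS and at 41.7, 54.9 and 10.2 in N-T0 (-3.53 ± 0.59, adjusted p = 0.00225). *scro*, a homeobox gene, was at 350, 343 and 268 against 32.5, 54.9 and 85.4 (-2.55 ± 0.36, adjusted p = 9.68e-04). The proneural gene *l(1)sc* was at 97.2, 118 and 54.2 against 6.62, 4.58 and 40.7 (-2.84 ± 0.76, adjusted p = 0.019), a call that was lost without N-FACS library 1 or 2 or without N-T0 library 2. The exception was *tll*, a nuclear receptor gene of neuroblasts and the optic lobe, at 3365, 4810 and 3552 against 4022, 3098 and 2865 (-0.23 ± 0.19, adjusted p = 0.365). The count of lower genes ranged from 7 to 10 as single libraries were left out, with 7 without N-FACS library 2. *pros*, *nerfin-1*, *dac* and *hbn* belong also to other lists given here.

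Notch itself, which the transgene expresses in an active form, could be given only as solved means of 39838 in N-FACS and 22823 in N-T0, and reads from the transgene and the endogenous gene cannot be told apart in these counts. Of the 9 tested genes that respond to Notch, 6 were lower and none higher, with a median of -1.63. *E(spl)mgamma-HLH*, the Hes gene most used in neuroblasts, was at 4639, 2832 and 4155 in N-FACS and at 3529, 2791 and 1527 in N-T0 and was not called (-0.62 ± 0.31, adjusted p = 0.145). The neighboring *E(spl)mbeta-HLH* was at 2566, 3097 and 2727 against 993, 910 and 807 (-1.63 ± 0.14, adjusted p = 1.48e-04). *E(spl)m8-HLH* was at 2218, 1917 and 2304 against 790, 746 and 344 (-1.86 ± 0.30, adjusted p = 0.00186), and *E(spl)m3-HLH* was at 404, 448 and 578 against 43.1, 32.9 and 52.9 (-3.45 ± 0.27, adjusted p = 9.21e-05). The members of the same gene complex were thus spread over a range from overlapping groups to no overlap at all. Without N-T0 library 1, *E(spl)mgamma-HLH* was called lower, at -0.88 (limma, adjusted p = 0.0457).

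*Myc*, the growth regulator, was at 3663, 3614 and 4039 in N-FACS and at 700, 3031 and 1930 in N-T0. Every allograft was below every sorted library, but the allografts differed so much among themselves that the gene was not called (-1.23 ± 0.45, adjusted p = 0.0563). It was called without N-T0 library 1 (-0.64, adjusted p = 0.0363) and without N-T0 library 2 (-1.70, adjusted p = 0.0107), and its exons share 61.2% of their bases with the opposite-strand gene *CG12535*, which had a mean of 7.36. *InR*, the insulin receptor, was at 1880, 3261 and 2971 against 489, 2303 and 1141 (-1.27 ± 0.49, adjusted p = 0.0685). It was called without N-T0 library 2 (-1.81, adjusted p = 0.00865), while its log2 fold change was -0.70 without N-T0 library 1. N-T0 library 1 was the lowest of the 6 libraries for both genes.

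Ribosome biogenesis genes, many of which are targets of Myc, were lower in 10 of 15 tested and higher in none, with a median of -0.76. *Nopp140*, a nucleolar chaperone, was at 9850, 10490 and 9929 in N-FACS and at 5653, 4871 and 3239 in N-T0 (-1.17 ± 0.20, adjusted p = 0.00268). *nop5*, a core protein of the particles that modify ribosomal RNA, was at 8676, 8293 and 8564 against 5458, 3913 and 2570 (-1.16 ± 0.25, adjusted p = 0.00686). In both genes N-T0 library 3, the shallowest, was the lowest of the 6 libraries, and the part of depth in this was not tested. The count of lower members ranged from 6, without N-FACS library 2 or 3, to 12, without N-T0 library 1. Of 22 cell cycle and replication genes, 16 were not called, 6 were lower and none was higher, with a median of -0.35, beside 20.7% of all features called lower. *PCNA*, the replication clamp, was at 10083, 8616 and 9459 against 9745, 7754 and 7822 (-0.16 ± 0.15, adjusted p = 0.421), and *Cdk1*, the mitotic kinase, at 3572, 3059 and 3122 against 2189, 1718 and 1472 (-0.87 ± 0.17, adjusted p = 0.00463). The lower genes were *CycB*, *CycB3*, *Cdk1*, *stg*, *aurB* and *geminin*, and their number ranged from 1 without N-FACS library 3 to 9 without N-T0 library 1.

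Among the most abundant transcripts, for which only solved means are given, the mitochondrial ribosomal RNA *mt:lrRNA* led both groups with 1241190 in N-FACS and 2860220 in N-T0. The long noncoding RNA *lncRNA:cherub*, which is needed for growth of *brat* tumors in flies, came next in N-FACS, with 759308 there and 179957 in N-T0, 4.22-fold lower. It lies at chromosome 3R, 11247631 to 11256123. The chaperone *Hsp83* was at 127921 and 52207, while its relative *Hsc70-4* was at 126370 and 119716. *eEF1alpha1*, a translation elongation factor, was at 206584 and 271768, and *mt:CoI* at 174939 and 312986. Of the 200 genes without library values, 44 had a log2 ratio of means of at least 0.5 and 34 of at most -0.5. The errors of these means, measured on 664 and 663 recovered genes of like level, had a median of 0.091% in N-FACS and 0.108% in N-T0, but they carry no spread between replicates.

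The genes with the largest increases were nearly absent from the sorted cells. *whe* was at 0, 0.876 and 0 in N-FACS and at 1709, 1321 and 4095 in N-T0, with 1 read against 6038 and a ratio of 6434 (exact 95% interval 1154 to 254154). *CG16826* was at 7.88, 1.75 and 0.986 against 4458, 3722 and 19655 (log2 fold change 10.88 ± 0.72, adjusted p = 4.83e-05). *lcs*, which is on the list of gut genes, was at 3.5, 0.876 and 0.986 against 934, 793 and 3262 (9.04 ± 0.60, adjusted p = 4.83e-05). In all 3 of them N-T0 library 3 held the most, and without it the log2 fold changes of *CG16826* and *lcs* were 10.13 and 8.39, both still called. *whe* and *lcs* lie close together on the X chromosome, at 21402339 to 21402772 and 21396727 to 21397316. A mean under 3 in N-FACS and of at least 30 in N-T0 was found for 88 genes, 10 of them without a read in N-FACS. Besides *whe* and *lcs*, the most abundant of the 88 were *CG45080*, *CG33109*, *Dro*, *CG34212*, *betaTry*, *CG1850*, *CG13947* and *CG43680*. *CG13947* and *CG43680* had no read in N-FACS, and their N-T0 means were at least 216-fold and 193-fold higher against the floor of 3 reads. They were at 13.9, 44.8 and 531 (*CG13947*) and at 109, 54.9 and 364 (*CG43680*) in the N-T0 libraries, so that most of both means came from library 3.

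Among the 12 higher genes with the smallest p were others that the sorted cells also expressed. *Ppn*, the matrix protein papilin, was at 336, 368 and 349 in N-FACS and at 4261, 3975 and 2129 in N-T0 (3.23 ± 0.25, adjusted p = 9.73e-05). *Orct2*, an organic cation transporter, was at 896, 797 and 680 against 2707, 3066 and 2898 (1.88 ± 0.15, adjusted p = 9.98e-05), and *DNApol-zeta*, the catalytic subunit of a translesion polymerase, at 1206, 1341 and 1273 against 3594, 4500 and 4339 (1.70 ± 0.14, adjusted p = 1.15e-04). *Orct2* and *DNApol-zeta* varied little within a group, whereas *Ppn* was lower in N-T0 library 3 than in the other allografts. *Lrt*, *CG3008*, *CG17999*, *CG33109*, *NtR* and *TotA* complete the set with *whe*, *CG16826* and *lcs*.

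Blood cell genes were higher in the allografts. Of 10 plasmatocyte genes tested, 9 were higher and none lower, with a median of 2.66, beside 17.6% of all features called higher. *Hml*, the clotting protein hemolectin, was at 68.3, 28.9 and 19.7 in N-FACS and at 779, 959 and 706 in N-T0 (4.53 ± 0.42, adjusted p = 1.63e-04). *NimC1*, a phagocytic receptor, was at 14.9, 1.75 and 2.96 against 268, 275 and 356 (5.74 ± 0.64, adjusted p = 3.46e-04). *Nplp2* was at 13.1, 7.89 and 0 against 290, 221 and 413 (5.90 ± 0.90, adjusted p = 0.00148). The 3 allografts were alike in these markers, and N-FACS library 1 held the most *Hml* and *NimC1* of the sorted libraries. The blood cell factor *srp* lay just under the mean of 30, at 5.26, 3.51 and 3.94 against 51, 58.6 and 52.9. Over the 14 members with library values the list summed to 2631 to 3020 in N-FACS and 7387 to 9024 in N-T0, and no member was at 0 throughout a group. The exception was the peroxidasin gene *Pxn*, at 86.7, 376 and 370 against 149, 129 and 279 (-0.39 ± 0.57, adjusted p = 0.61).

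Of the other blood cell types, *PPO1*, a prophenoloxidase of crystal cells, was at 3.5, 3.51 and 29.6 in N-FACS and at 127, 79.6 and 126 in N-T0 (3.68 ± 0.76, adjusted p = 0.00603), while *lz*, which defines that cell type, was at 10.5, 25.4 and 4.93 against 1.32, 4.58 and 0. The lamellocyte marker *atilla* was at 0, 0 and 3.94 against 22.5, 28.4 and 108, and *PPO3* was at 26.3, 26.3 and 23.7 against 55.6, 62.2 and 148 (1.62 ± 0.45, adjusted p = 0.0206), a call lost without N-FACS library 2 or 3. Their highest values were those of N-T0 library 3. Of the 4 crystal cell genes tested 2 were higher, and of the 4 lamellocyte genes 3.

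Markers of other host organs differed in how far they were detected. The adult fat body list had 6 of 8 genes higher, with a median of 2.89. The yolk protein gene *Yp1* was at 23.7, 3.51 and 2.96 in N-FACS and at 360, 207 and 758 in N-T0 (5.66 ± 0.76, adjusted p = 7.76e-04), and *Yp3* was at 99, 56.1 and 37.5 against 797, 550 and 1554 (3.87 ± 0.45, adjusted p = 3.94e-04). N-FACS library 1 was again the highest of the sorted libraries for both, and without it they were higher by 6.51 and 4.23 on the log2 scale. The fat body list summed to 2465 to 2686 in N-FACS and 5402 to 7164 in N-T0. Gut genes were highest in N-T0 library 3. *alphaTry*, a digestive trypsin, had no read in N-FACS and was at 25.2, 2.75 and 388 in N-T0, at least 153-fold higher against the floor, and its call was lost in 5 of the 6 fits that left out 1 library. Of the 5 gut genes tested 4 were called higher, but only 2 without N-T0 library 3 and 1 without any single N-FACS library, and the median, 5.07 with all libraries and 5.42 with *alphaTry* at its floor, was 3.31 without that library. The 11 gut genes summed to 5.91 to 37.7 in N-FACS and to 1086, 844 and 5177 in N-T0, most of it from *lcs*. The 6 gut genes not tested lay under the mean of 30, which a gut gene reached only through N-T0. *lcs*, and *TotA* of the fat body list, are also among the 12 higher genes with the smallest p.

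Eggshell and muscle genes were mostly under the mean of 30. The 7 eggshell genes summed to 43.4 to 96.4 in N-FACS and 63.1 to 148 in N-T0, and *Cp36* held at most 5.3 in any library. The 1 eggshell gene tested, *Cp15*, was called higher at 19.3, 6.13 and 1.97 against 26.5, 40.3 and 93.5 (2.65 ± 0.82, adjusted p = 0.0323), a call lost without N-FACS library 2 or 3 or N-T0 library 2 or 3. It reached the mean of 30 through its N-T0 values. Of the 15 muscle genes 11 lay under the mean of 30, and the defining myosin gene *Mhc* was at 5.26, 22.8 and 3.94 against 11.3, 22.9 and 4.07. Of the 4 muscle genes tested 3 were lower, and 1 without N-FACS library 1 or 2 or N-T0 library 1. The larger members of that list, such as *Tm1* at 4961, 5107 and 5219 against 3035, 3533 and 3339 (-0.63 ± 0.12, adjusted p = 0.00501), are also used outside muscle. *Uro*, the urate oxidase of Malpighian tubules, had no read in N-FACS and was at 2.65, 76 and 36.6 in N-T0, at least 42.2-fold higher. Of the tracheal genes 1 was higher and 1 lower of 4 tested. The part that RNA of host organs has in the higher genes was not tested.

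**Figure D4:**
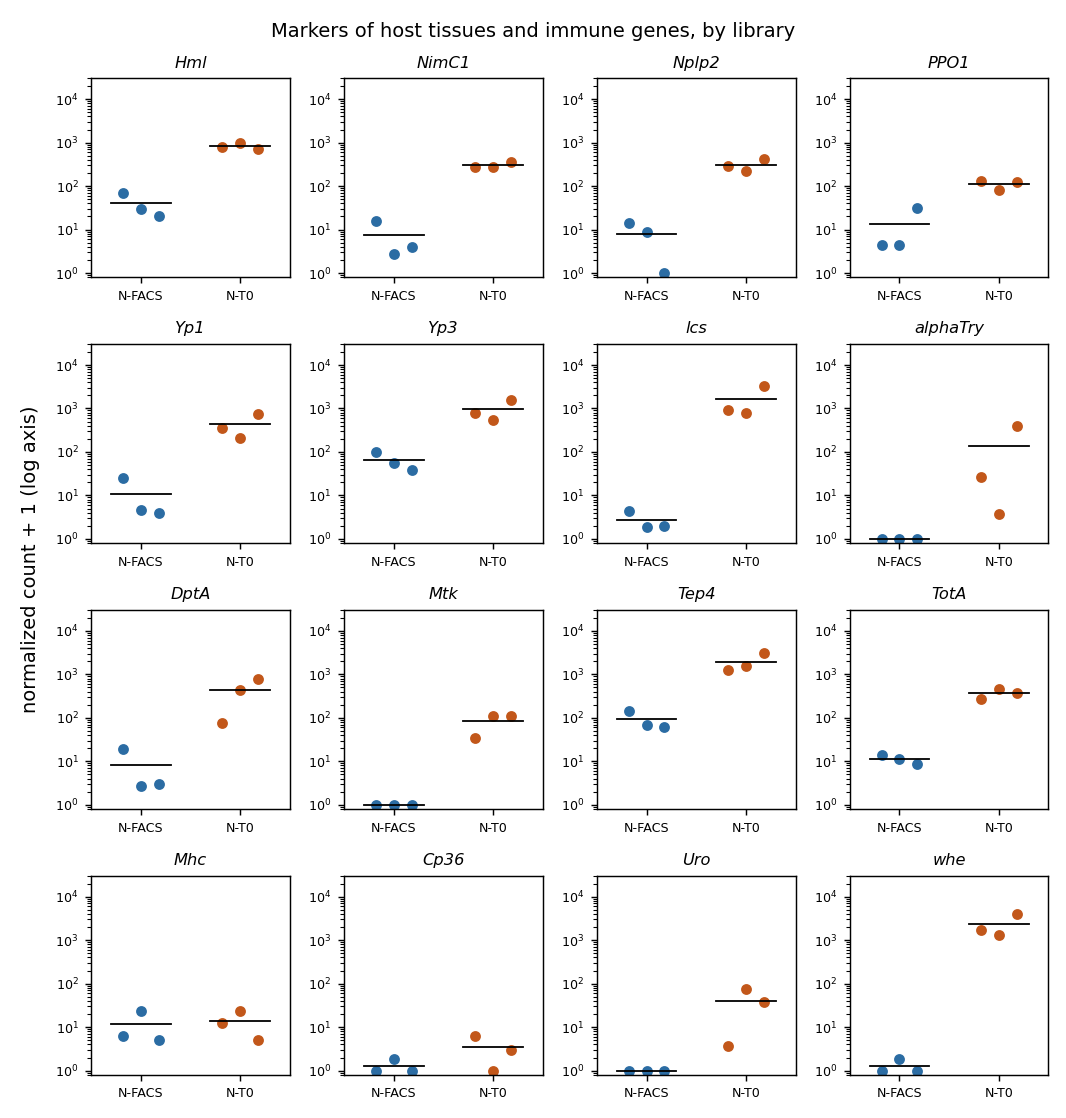
Each panel is a marker of a host tissue or an immune gene, with 3 N-FACS libraries in blue, 3 N-T0 libraries in orange, normalized count + 1 on a logarithmic axis shared by all panels, and a black bar at each group mean. *Hml* and *NimC1* are even across the N-T0 libraries, *alphaTry* is highest in N-T0 library 3, and *Mhc* and *Cp36* stay low in all 6.

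Antimicrobial peptide genes were higher as a family. Of 13 tested, 12 were higher and none lower, with a median of 4.56. The other 4 lay under the mean of 30. With N-FACS values this low, a peptide reached that mean largely through N-T0, so the filter largely set the direction of those tested. *DptA*, a diptericin of the Imd pathway, was at 18.4, 1.75 and 1.97 in N-FACS and at 74.2, 426 and 791 in N-T0 (5.76 ± 1.01, adjusted p = 0.00277). *AttC*, an attacin, was at 9.64, 2.63 and 2.96 against 55.6, 502 and 756 (5.70 ± 0.94, adjusted p = 0.00208). *Mtk*, encoding metchnikowin, had no read in N-FACS and was at 32.5, 110 and 112 in N-T0, at least 93.1-fold higher. *Drs*, the drosomycin gene of the Toll pathway, was at 10.5, 8.76 and 14.8 against 19.9, 113 and 77.3 (2.24 ± 0.68, adjusted p = 0.0295). N-T0 library 1 was the lowest of the allografts in each of them, and *Drs* lost its call in 5 of the 6 fits without a library. The 17 peptides summed to 83.8 to 154 in N-FACS and to 678, 2354 and 4534 in N-T0, and the number called higher ranged from 10 to 13 as single libraries were left out and was 6 with voom weights, where *DptA*, *AttC* and *Drs* were among those that lost their calls. *AttA* and *AttB*, and likewise *CecA1* and *CecA2*, are near copies of each other, so that their reads may be shared between them. The peptides of the Bomanin family were more even, with *BomS3* at 7.01, 0 and 1.97 against 60.9, 51.3 and 95.6 (4.56 ± 0.84, adjusted p = 0.00355).

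Among the genes that signal to these peptides, 6 of 13 were higher and 3 lower, beside 17.6% and 20.7% of all features. The Imd pathway factor *Rel* was at 1213, 1143 and 1218 in N-FACS and at 1793, 1996 and 2121 in N-T0 (0.72 ± 0.13, adjusted p = 0.0033). The receptor gene *PGRP-LB*, an amidase that damps the pathway, was at 2.63, 6.13 and 4.93 against 25.2, 63.1 and 81.3 (3.27 ± 0.65, adjusted p = 0.00513). Lower were 3 genes of the Toll branch: the receptor *Tl* at 166, 722 and 591 against 46.4, 86 and 150 (-2.28 ± 0.60, adjusted p = 0.0169), its ligand *spz* at 76.2, 156 and 198 against 9.93, 23.8 and 30.5 (-2.71 ± 0.53, adjusted p = 0.00445), and the factor *Dif* at 88.5, 243 and 201 against 27.8, 50.3 and 38.6 (-2.08 ± 0.43, adjusted p = 0.00635). The call of *Tl* was lost without N-FACS library 2 or 3. The Toll components *cact* and *dl* were not called. *Tep4*, a thioester protein, was at 145, 67.5 and 61.1 against 1243, 1517 and 3074 (4.40 ± 0.41, adjusted p = 1.77e-04), and the clotting protein *fon* at 27.2, 0.876 and 1.97 against 94.1, 88.8 and 130 (4.27 ± 0.95, adjusted p = 0.00851). Of this list of thioester and clotting proteins 3 of 6 were higher and 1 was lower.

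Turandot stress genes were higher, whereas no tested component of the JAK/STAT pathway, which can induce them, was called. *TotA* was at 13.1, 10.5 and 7.89 in N-FACS and at 270, 464 and 372 in N-T0 (a 35.1-fold ratio of means, SE 0.35 on the log2 scale, adjusted p = 5.78e-05), *TotC* at 7.01, 3.51 and 1.97 against 161, 250 and 130 (5.20 ± 0.53, adjusted p = 2.31e-04), and *TotM* at 3.5, 2.63 and 0.986 against 201, 190 and 95.6 (5.60 ± 0.56, adjusted p = 2.26e-04). Every allograft was far above every sorted library. The receptor gene *dome* was at 711, 744 and 669 against 564, 556 and 923 (-0.10 ± 0.22, adjusted p = 0.745), and the feedback inhibitor *Socs36E* at 1438, 1744 and 1555 against 1352, 1587 and 1273 (-0.17 ± 0.15, adjusted p = 0.384). None of *dome*, *hop*, *Stat92E*, *Socs36E* and *Ptp61F* was called. The ligand genes *upd1*, *upd2* and *upd3* were all under the mean of 30, with *upd2* at 25.4, 15.8 and 28.6 against 0, 1.83 and 4.07.

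Of 12 tested genes of the JNK pathway and its targets, 8 were not called, 3 were lower and 1 was higher, beside 20.7% and 17.6% of all features. *rpr*, which triggers cell death, was at 205, 265 and 241 in N-FACS and at 7.95, 18.3 and 22.4 in N-T0 (-3.89 ± 0.42, adjusted p = 2.91e-04). *Mmp1*, a matrix metalloprotease, was at 277, 610 and 660 against 11.9, 50.3 and 73.2 (-3.72 ± 0.63, adjusted p = 0.00244), whereas the other metalloprotease, *Mmp2*, was at 880, 712 and 744 against 1717, 1949 and 1509 (1.15 ± 0.16, adjusted p = 8.83e-04). Both proteases were free of overlap between groups, in opposite directions. The pathway's feedback phosphatase *puc* was at 812, 1409 and 1105 against 808, 1128 and 801 (-0.26 ± 0.23, adjusted p = 0.393). Basement membrane genes included 7 of 15 higher and 3 lower. The type IV collagen gene *Col4a1*, which plasmatocytes and fat body secrete, was at 237, 232 and 332 against 1582, 1410 and 1139 (2.37 ± 0.20, adjusted p = 1.29e-04), and its partner *vkg* at 131, 138 and 160 against 946, 839 and 543 (2.40 ± 0.24, adjusted p = 2.21e-04).

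Response genes that sorting can touch were given separately, since only the N-FACS cells were treated with collagenase and sorted. The immediate early genes *Hr38* and *sr* were at 787, 663 and 422 and at 688, 618 and 539 in N-FACS, and at 7.95, 10.1 and 4.07 and at 0.662, 9.15 and 0 in N-T0 (-6.25 ± 0.40 and -7.90 ± 0.78, adjusted p = 4.57e-05 and 2.21e-04). *kay*, the fly Fos, was not called at 989, 1111 and 1413 against 1131, 1570 and 1688 (0.32 ± 0.20, adjusted p = 0.242), and *Jra*, the fly Jun, was lower at 459, 612 and 654 against 301, 314 and 214 (-1.06 ± 0.22, adjusted p = 0.00654). *Arc1*, a capsid-forming gene of neurons, was higher instead, at 541, 445 and 638 against 2968, 4177 and 8878 (3.16 ± 0.36, adjusted p = 3.74e-04). Of 11 tested genes of this list of dissociation and immediate early response, 5 were lower, 2 higher and 4 not called. The list median was -0.26, and its lowest member was *CG14186*, at -9.55. Activity and stress genes therefore went in both directions. Of the small heat shock genes, *Hsp67Bc* was at 277, 1224 and 1691 against 17.9, 28.4 and 75.2 (-4.58 ± 0.72, adjusted p = 0.00163), *Hsp26* had solved means of 31148 and 17079, and *Hsp27* of 32217 and 12086. *Hsp70Aa* and *Hsp70Ba*, near copies of one another, overlapped between the groups (1.37 ± 0.68 and 1.00 ± 0.65, adjusted p = 0.138 and 0.25).

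Genes of the ecdysone response, the hormone cascade that times larval development, were lower in 4 of 10 tested and higher in none, with a median of -0.52. *Eip74EF* was at 108, 326 and 678 in N-FACS and at 5.3, 14.6 and 12.2 in N-T0 (-4.73 ± 0.67, adjusted p = 0.00102). *Eip93F*, which ends neuroblast life in the pupa, was at 1476, 2286 and 3163 against 174, 604 and 697 (-2.39 ± 0.51, adjusted p = 0.00676). *Eip75B* and *Hr4* fell by 2.00 and 4.23 on the log2 scale. In all 4 genes N-FACS library 1 was the lowest of the sorted libraries, and without it all 4 were called lower, *Eip74EF* at -5.43 and *Hr4* at -5.40. The receptor gene *EcR* was at 2207, 1368 and 1586 against 1039, 3157 and 2192 and was not called (0.20 ± 0.37, adjusted p = 0.7).

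Metabolic genes moved little as lists, with single members that stood out. Of 11 glycolysis genes, 3 were lower and none higher, with 1 lower without N-FACS library 1 or 3 or under total-count scaling and 5 without N-T0 library 1. Lactate dehydrogenase, *Ldh*, was at 1381, 4098 and 4632 in N-FACS and at 344, 506 and 763 in N-T0 (-2.54 ± 0.46, adjusted p = 0.00337), while *Pfk*, the committed step of glycolysis, was at 3938, 4606 and 5042 against 4278, 4728 and 3981 (-0.06 ± 0.15, adjusted p = 0.761). Of 15 genes of the tricarboxylic acid cycle, 3 were higher (*Fum1*, *Idh* and *Mdh1*) and 1 lower (*kdn*), beside 17.6% of all features called higher and 20.7% lower. *Fum1*, a fumarase, was at 5624, 3731 and 3761 against 10726, 9044 and 12969 (1.33 ± 0.21, adjusted p = 0.00158). The glucose transporter gene *Glut1* was at 606, 947 and 1066 against 19.2, 56.7 and 20.3 (-4.86 ± 0.43, adjusted p = 1.46e-04), and *Tret1-1*, a trehalose transporter of surface glia, at 561, 1348 and 1675 against 210, 204 and 336 (-2.15 ± 0.40, adjusted p = 0.00355). *Tps1*, which makes the blood sugar trehalose, was the reverse at 47.3, 15.8 and 19.7 against 364, 421 and 502 (4.06 ± 0.41, adjusted p = 2.26e-04). Both sugar transporters and the trehalose synthase gene thus differed in direction, and *Ldh* and *Tret1-1* were again lowest in library 1 of the sorted cells, and at -3.09 and -2.62 without it.

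Lipid genes were higher in 6 of 13 tested and lower in 1. *bmm*, the main triglyceride lipase, was at 419, 408 and 394 in N-FACS and at 1486, 1655 and 1094 in N-T0 (1.77 ± 0.18, adjusted p = 2.40e-04), and *SREBP*, the regulator of lipid synthesis, at 6492, 6632 and 6005 against 11248, 11696 and 14504 (0.96 ± 0.15, adjusted p = 0.00142). Of 15 glutathione S-transferase genes, which detoxify reactive compounds, 5 were higher and none lower, with a median of 0.91, which was 0.56 without N-FACS library 1 and 0.55 without N-T0 library 3. *GstD3* was at 812, 571 and 619 against 1732, 1352 and 1850, a 2.46-fold ratio of means (limma log2 fold change with an SE of 0.19, adjusted p = 0.00114). The oxidase gene *Nox* was at 31.5, 65.7 and 54.2 against 174, 264 and 95.6 (1.74 ± 0.44, adjusted p = 0.0144), a call that was lost without N-T0 library 2. Catalase, *Cat*, was at 2022, 1695 and 2030 against 3252, 3164 and 2796 (0.68 ± 0.14, adjusted p = 0.00562), while 10 of the 14 oxidant genes tested were not called.

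Of 8 tested genes of the response to starvation and amino acids, 4 were higher and 2 lower, the latter number being 0 without N-FACS library 2, N-FACS library 3 or N-T0 library 1 and 1 without N-FACS library 1 or N-T0 library 3. *Thor*, the inhibitor of translation initiation 4E-BP, was at 664, 573 and 667 in N-FACS and at 1260, 1635 and 1086 in N-T0 (1.05 ± 0.18, adjusted p = 0.00267). *crc*, the fly ATF4, was at 6024, 5309 and 6460 against 10143, 10569 and 11023 (0.84 ± 0.13, adjusted p = 0.00178), with 73.5% of its exon bases shared with a gene on the same strand that had no counts here. *Gadd45*, a stress response gene, was at 258, 347 and 310 against 861, 1073 and 3207 (2.24 ± 0.44, adjusted p = 0.0045). All 3 genes were free of overlap. Of 13 autophagy genes, 5 were higher and none lower, with *Atg9* at 456, 424 and 421 against 888, 980 and 982 (1.13 ± 0.14, adjusted p = 5.81e-04) and the cargo receptor *ref(2)P* at 1127, 1336 and 1685 against 2614, 3032 and 2824 (1.05 ± 0.17, adjusted p = 0.00198). The autophagy count fell to 2 without N-FACS library 2 or 3, as *Atg5*, *Atg8a* and *Atg17* then lost their calls. The medians were 0.37 for starvation and 0.29 for autophagy.

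**Figure D5:**
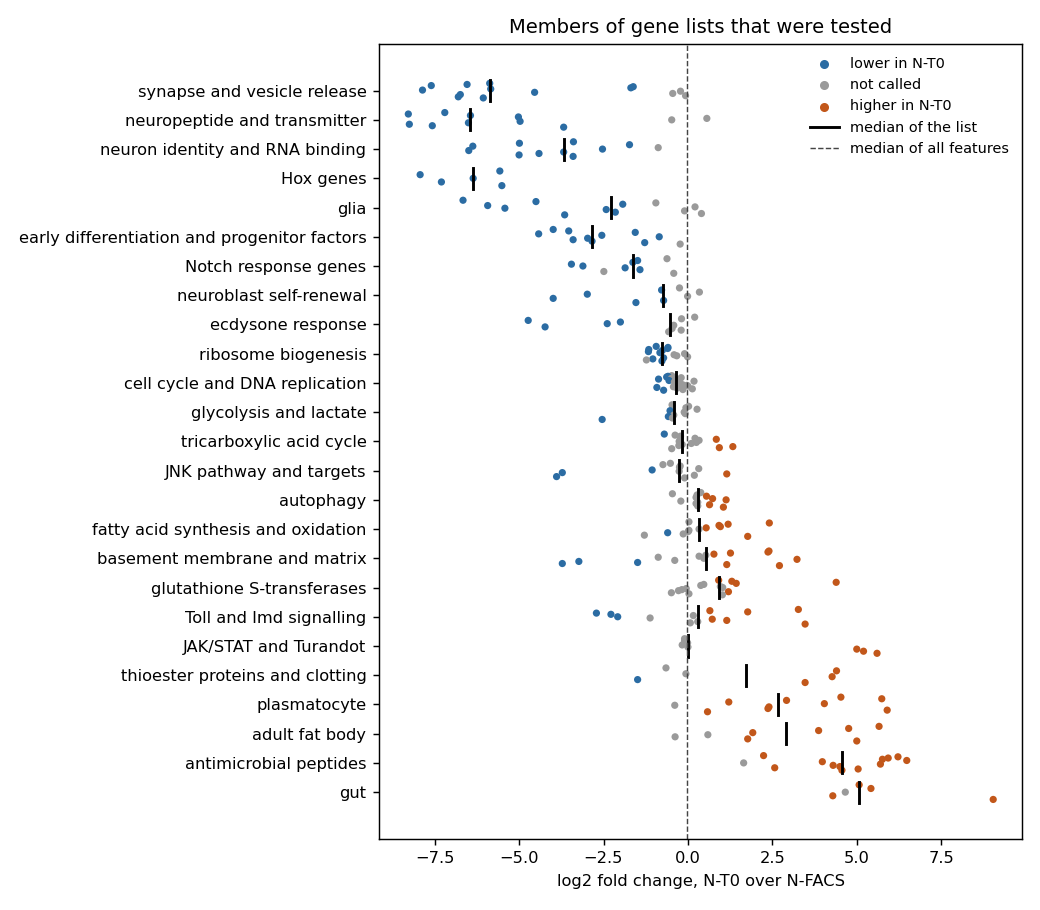
Rows are gene lists and each point is a tested member at its log2 fold change of N-T0 over N-FACS, blue where called lower, orange where called higher and gray where not called. Black ticks mark the list medians and the dashed line the median of all features, -0.023. The medians run from -6.44 for neuropeptide and transmitter genes to 5.07 for gut genes.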

How the data were processed

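Per the labels, polyA RNA libraries were sequenced on a NextSeq 500, and the submitters' processing notes name FastQC 0.11.9, DESeq2 and the builds BDGP6 and dm6. Whether counting used strand is not given in the sources used here. The deposited tables, 1 for each pair of stages, hold a score, the authors' mean of DESeq2-normalized counts over 6 libraries, beside the authors' own fold changes, errors and p-values, which were not used. Each mean is a sum of whole counts times a weight per library, printed to 15 significant digits. Integer lattice reduction (sympy 1.14.0) over the 3 tables returned whole counts per library for 12468 of 12668 features (98.421%). In all 3 tables the lowest row total was 10, and 17 of 18 size factors were counted as exact matches to a median-of-ratios value. Median-of-ratios values taken from the recovered counts alone differed from the size factors by -0.6218% to 0.3662%. Libraries were assigned to groups by which tables share them. The 200 features left, all with a mean of at least 4279, held 45.385% of the summed means, and only group means were solved for them.

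Log2(normalized count + 1) was compared with limma 3.58.1 (lmFit, eBayes with trend, R 4.3.3) on the 3 N-FACS and 3 N-T0 libraries, for features with a mean of at least 30, with Benjamini-Hochberg adjustment over all 7892. Fold changes on this scale understate the change of low genes. A gene nearly absent from 1 group reaches the mean of 30 only through the other group, which fixes its direction. On counts simulated for this comparison over 7892 features, limma called 90 of 100 genes changed by 1 on the log2 scale and 100 of 100 changed by 2, with 11 false calls. The simulation gave every feature the same dispersion and changed few of them. Its results are therefore not the power or error rate of the real comparison, where the spread differed between genes and groups. Exact intervals and floors cover counting error only, since reads without molecular identifiers are not independent molecules. Replicates are pools of animals, so p-values measure the spread between pools. Named genes were the 12 with the smallest p in each direction, the 10 most abundant of those turned on or off or highest in each group, the members of the gene lists and 10 genes the study's text names. Members and lists were chosen with earlier results of these data known. Alternatives were other filters, scalings, pseudocounts, voom weights, a test against a fold change of 0.5 and each library left out. Exon overlap was computed from the BDGP6.54 annotation. The values of 1 member of the optic lobe list are not reported here.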

Additional observations from a re-analysis of the deposited data

How the results depend on the processing

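The numbers of features higher and lower in N-T0, 1392 and 1631, became 535 and 865 when limma's treat asked for changes beyond 0.5. With 1 library left out they ranged from 883 to 1383 and from 1096 to 1778, the lowest higher count, 883, without N-FACS library 2. Scaling by total count moved the median of all features by 0.11 on the log2 scale, from -0.02 to 0.09, and the share of calls that were higher from 46% to 55.4%. Of 373 named genes and list members tested, 227 were called. Of these, 163 were called by treat, 152 under every alternative and 172 under every alternative except treat, and no called gene changed sign. By treat, the lower cell cycle genes went from 6 to 0 and the lower ribosome biogenesis genes from 10 to 1. The median of the muscle list turned to 0.34 at a mean of at least 10 and to 1.14 with no filter, that of the tubule and nephrocyte list to 0.14 in both, as more members were tested. Without N-T0 library 1 *cac* turned from -0.07 to 0.56, while leaving out single libraries gave it values from -0.42 to 0.56, and the cause was not tested. No paired analysis was possible because the recovered libraries could not be tied to the replicate numbers of the labels. The 200 unresolved genes have no spread, and N-T0 library 3 had the fewest reads, 5268727.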

Other observations

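Gene families taken whole by the start of their symbols, chosen after the data were seen, add to the neuronal genes. All 13 Beat genes, cell surface proteins of axon guidance, were lower in N-T0, with a median log2 fold change of -4.19. Of the 21 Dpr genes and 8 tested DIP genes, whose products bind each other at synapses, 19 and 7 were lower and none higher, with medians of -4.32 and -4.67. Of 9 nicotinic acetylcholine receptor subunits 7 were lower, and of 11 potassium channels 9 were lower and 1 higher.

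Of 33 proteasome subunits tested, 18 were lower and 2 higher, with a median of -0.51. Of 18 cytochrome P450 genes tested, 11 were higher and 1 lower, with a median of 1.34. Among 11 transcripts of the mitochondrial genome without library values, 9 had a log2 ratio of solved means of at least 0.5, with a median of 0.84 and no test. Of the 7 such transcripts that were tested, 1 was higher and none lower, with a median log2 fold change of 0.23 and a range from -0.69 to 1.64.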
